A study of Rattus norvegicus with 10 samples.

Results

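The chemokine, interleukin and receptor genes were taken from the table of all genes by name: every gene whose symbol begins with Ccl, Cxcl, Ccr, Cxcr or Il followed by a digit, or with Cx3c, except Il1rapl1 and Il1rapl2. This gave 129 of 22081 genes, of which 71 encode ligands or their inhibitors and 55 receptors or receptor chains, and 3 have other roles. RNA was sequenced from rupture-prone intracranial aneurysms, numbered 4 to 8, and from the remaining circle of Willis, the ring of arteries at the base of the brain, numbered 4 to 8 and labelled as controls. All 10 samples came from wild-type female Sprague-Dawley rats that were ovariectomized at 10 weeks of age, had the left carotid, right external carotid, right pterygopalatine and left renal arteries ligated, and ate chow with added salt (8% sodium chloride) and with 3-aminopropionitrile at 0.12%, which blocks lysyl oxidase. Tissue was taken on day 63 after surgery. The circle of Willis samples therefore came from operated animals on the same diet, and no sample came from an unoperated rat. The study asked which factors bring neutrophils into the lesion.

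Chemokines are small secreted proteins that draw leukocytes along a gradient. They are grouped as CC, CXC and CX3C by the spacing of their conserved cysteines, and they act on receptors coupled to inhibitory G proteins. CXC chemokines such as Cxcl1 and Cxcl2 act on Cxcr2 and attract neutrophils, whereas Ccl2 and Ccl7 act on Ccr2 and attract monocytes. Interleukins signal through paired receptor chains: the interleukin 1 family through MyD88 and NF-kappaB, the interleukin 6 family through gp130 (Il6st) and STAT3. In models of intracranial aneurysm, macrophages recruited by Ccl2 are a known component of the inflamed wall.

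In the aneurysms, 53 of the 129 genes had at least 1 exon read over the 5 samples, 33 had intron reads and no exon read, and 43 had no read. In the circle of Willis, 42 had exon reads, 36 had intron reads only and 51 had no read. An exon read lies in an annotated exon of the gene, an intron read in the rest of it, and gene reads are the sum of both. Exon reads were thus found for 41.1% of the chemokine and interleukin genes in the aneurysms, against 32.6% in the circle of Willis, while the shares over all genes of the table were 48.6% in the aneurysms, against 47.2% in the circle of Willis. This order turned round without aneurysm 5, when 32 of the genes (24.8%) and 37.7% of all genes had exon reads in the other 4 aneurysms. A gene with no read in a group was below about 0.106 reads per 1000000 gene reads in the aneurysms, against 0.146 in the circle of Willis, which is the limit that 3 reads would give and covers counting error only. Exon reads in both groups were found for 32 of the genes.

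The genes with exon reads in the aneurysms and no read in the circle of Willis were 10 in number: the monocyte and lymphocyte attractants Ccl2, Ccl3, Ccl4, Ccl5 and Ccl7, the chemokine receptor Cxcr4, the interleukin 18 inhibitor Il18bp, the p19 chain Il23a, the common gamma chain Il2rg, and Il6. Without aneurysm 5 their number was 5. A further 11 were read in exons of the aneurysms but only in introns of the circle of Willis (Ccl1, Ccl28, Ccr6, Cxcl9, Il10ra, Il11, Il17re, Il18, Il1rl1, Il23r and Il34). In the other direction, Ccl25, Ccl27, Cxcl6, Il25 and Il2rb had no read in the aneurysms but exon reads in the circle of Willis, and Il13ra2, Il1rl2, Il20ra, Il27 and Il2ra had intron reads only in the aneurysms but exon reads in the circle of Willis. Several of these genes carried 1 to 9 exon reads in all, so that their class rests on few fragments: Il6, Il23a, Il27, Il1rl2, Il2rb and Ccl28 had 1 exon read each. The share of all genes in these same pairs of classes was not computed. The aneurysms also held more gene reads in all, 28291734 against 20516991 in the circle of Willis. These counts therefore describe the genes and do not set them apart from the rest of the table.

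**Figure D1:**
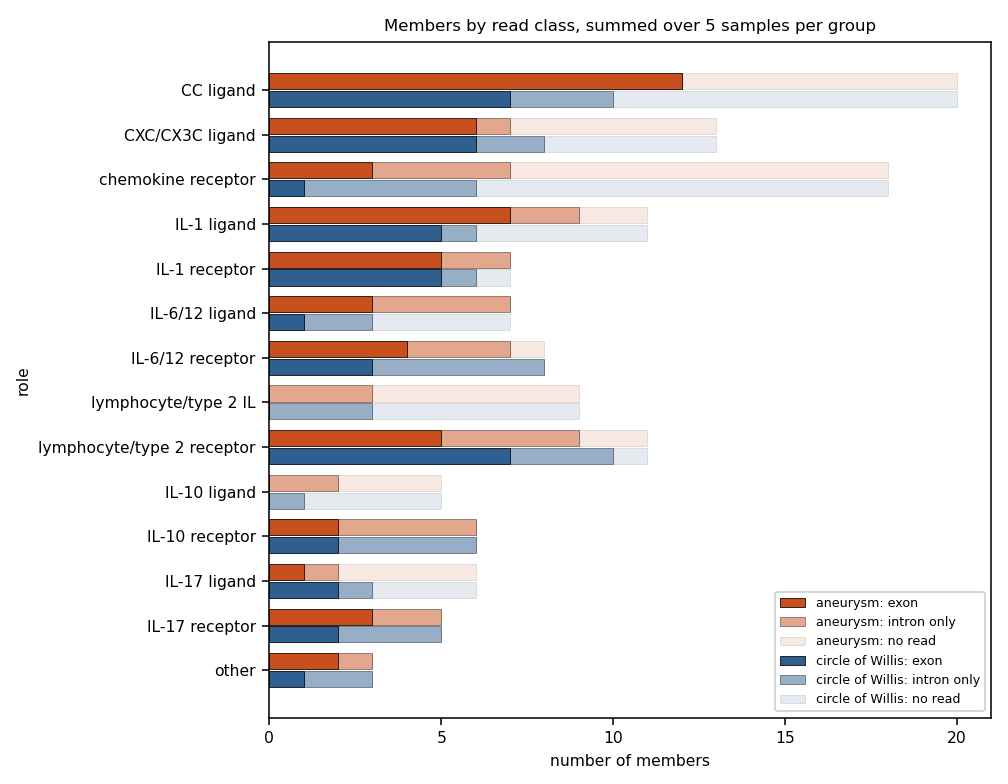
Number of the 129 genes (horizontal axis) with exon reads, intron reads only or no read, by role (vertical axis), summed over the 5 aneurysm samples (orange, upper bar) and the 5 circle of Willis samples (blue, lower bar); darker shades are exon reads. CC ligands with exon reads numbered 12 in the aneurysms, against 7 in the circle of Willis, and most chemokine receptors had no read in either tissue.

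No read in any of the 10 samples was found for 32 of the genes. They include the neutrophil attractants Cxcl1, Cxcl2 and Cxcl3, the interferon-induced Cxcl10 and Cxcl11 and their receptor Cxcr3, the eotaxin Ccl11, the receptors Ccr1, Ccr2, Ccr3, Ccr4, Ccr8, Ccr10, Cxcr1 and Cxcr6, and the T cell products Il2, Il3, Il4, Il9, Il13, Il17a and Il21. The others were Ccl12, Ccl17, Ccl21, Ccl22, Ccr1l1, Il17c, Il1f10, Il20, Il24 and Il36b. By share, 24.8% of the chemokine and interleukin genes and 24.4% of all genes had no read in any sample. Intron reads without any exon read were found for 34 of them (26.4%, against 18.0% of all genes). The genes without a read were short, with a median length of 2792 bp, against 9558 bp for those with exon reads and 12436 bp for those with intron reads only. Over all genes the medians were 988, 20859 and 25217 bp for the same classes.

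The exon reads were concentrated in a few aneurysm samples. Summed over the 129 genes, aneurysms 4 to 8 had 906, 7271, 3426, 1422 and 9 exon reads, and circle of Willis 4 to 8 had 345, 282, 632, 614 and 317. Scaled to 1000000 exon reads of the sample this was 255, 1539, 1249, 568 and 3.65 in the aneurysms, against 153, 111, 293, 178 and 156 in the circle of Willis. Aneurysms 4 to 7 exceeded all circle of Willis samples except that aneurysm 4 lay below circle of Willis 6, and aneurysm 8 lay below all of them. Of the 13034 exon reads in the aneurysms, 5763 remained without aneurysm 5, and the number of genes with exon reads was then 32 in place of 53.

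At least 10 exon reads were reached by 7, 34, 11, 15 and 0 of the genes in aneurysms 4 to 8, against 9, 8, 11, 8 and 6 in circle of Willis 4 to 8. Aneurysm 5 was also the sample with the most genes of any kind at this level (34.4% of all genes, against 12.1% to 19.1% in the circle of Willis), and aneurysm 8 the one with the fewest (3.36%). In every sample the share of chemokine and interleukin genes at this level was below the share of all genes. Of the 50 genes that reached 10 exon reads in a sample, 21 did so in aneurysms only, 10 in the circle of Willis only and 19 in both. Over all 10857 such genes of the table, 22.5% did so in aneurysms only, 17.3% in the circle of Willis only and 60.2% in both. Without aneurysm 5 the numbers were 12 in aneurysms only, 16 in the circle of Willis only and 13 in both, and over all genes 13.2%, 35.1% and 51.7%. Aneurysm 5 held the most exon reads for 24 of the 50 genes, and for 43.1% of all such genes.

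**Figure D2:**
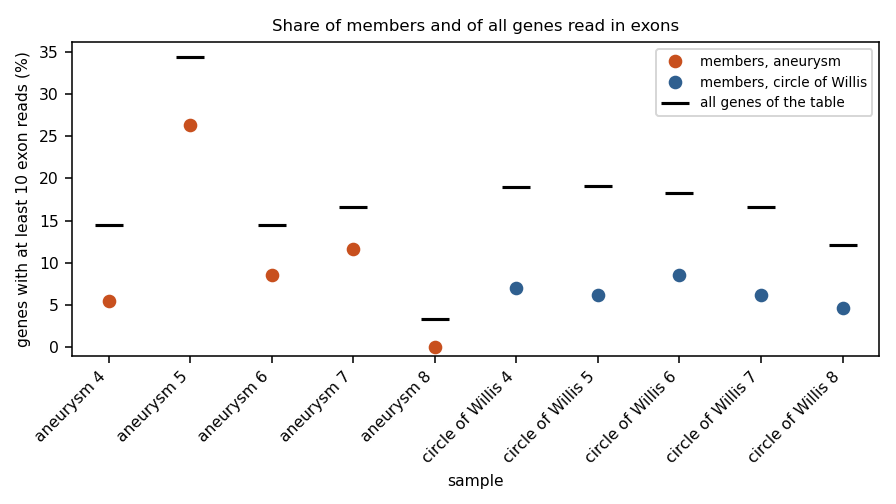
Share of genes with at least 10 exon reads (vertical axis, %) in each sample (horizontal axis), for the 129 chemokine, interleukin and receptor genes (dots, orange for aneurysm and blue for circle of Willis) and for all 22081 genes (black bars). The dots lie below the bars in all 10 samples, and aneurysm 5 and aneurysm 8 are the highest and lowest for both.

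The libraries held 4513515 to 7352626 gene reads in the aneurysms, against 3017269 to 5692715 in the circle of Willis, and introns took 35.7% to 49.8% and 32.8% to 47.1% of them. Aneurysm 8 stood apart, with a TMM scaling factor of 0.282 where the other samples had 0.759 to 1.57. Markers of other cells moved with the samples. The macrophage list (13 genes, all with exon reads in the aneurysms, against 12 in the circle of Willis) summed to 829, 48390, 36081, 4802 and 12 exon reads in aneurysms 4 to 8, against 80 to 640 in the circle of Willis. By this list the aneurysms ranked in the same order as by their chemokine and interleukin reads. That order was not particular to macrophage markers. The fibroblast list and the JAK, STAT and SOCS and G protein signalling lists described below gave it too, while the smooth muscle list did not. Most fibroblast reads were those of Col1a1 and Col3a1 (172691 and 39093 of 216064 exon reads in aneurysm 5). Singly, these collagens, Dcn and Lum gave the order, while Pdgfra, Pi16, Dpt and Fbln1 did not. The fibroblast list (8 genes, 8 with exon reads in the aneurysms, against 7 in the circle of Willis) had 260 to 216064 exon reads in the aneurysms, against 138 to 1245 in the circle of Willis; in this order of tissues, the T and NK cell list (12 genes, 7 and 2 with exon reads) had 0 to 1120 and 0 to 184, and the B cell list (6 genes, 1 and 1) 0 to 101 and 0 to 3. The neutrophil list (12 genes, 2 and 4) had 0 to 15 and 1 to 122 exon reads, and S100a9, Mpo, Elane, Camp, Lcn2, Fpr1 and Fpr2 had no read in any sample. The 122 are 113 of Ngp and 9 of S100a8, in circle of Willis 7. Csf3r and Mmp8 went the other way, with up to 10 and 15 exon reads in an aneurysm, against at most 2 in a circle of Willis sample. By staining of protein, the paper reports myeloperoxidase-positive neutrophils in rupture-prone lesions. Neuron markers (10 genes, 6 and 10) summed to 24 to 122 and 165 to 1653, and astrocyte markers (6 genes, 4 and 6) to 0 to 681 and 84 to 1613. The arterial lists were read in both tissues: smooth muscle (8 genes, 7 and 7) 449 to 6756 and 858 to 3375, endothelium (9 genes, 9 and 9) 1 to 1915 and 245 to 498. Mast cell markers (6 genes, 0 and 1) had 0 and 0 to 72, and red blood cell markers (4 genes, 1 and 3) 0 to 467 and 0 to 144. The part of these cells in the values below was not tested, and in bulk tissue more cells of a type cannot be told apart from more RNA per cell.

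**Figure D3:**
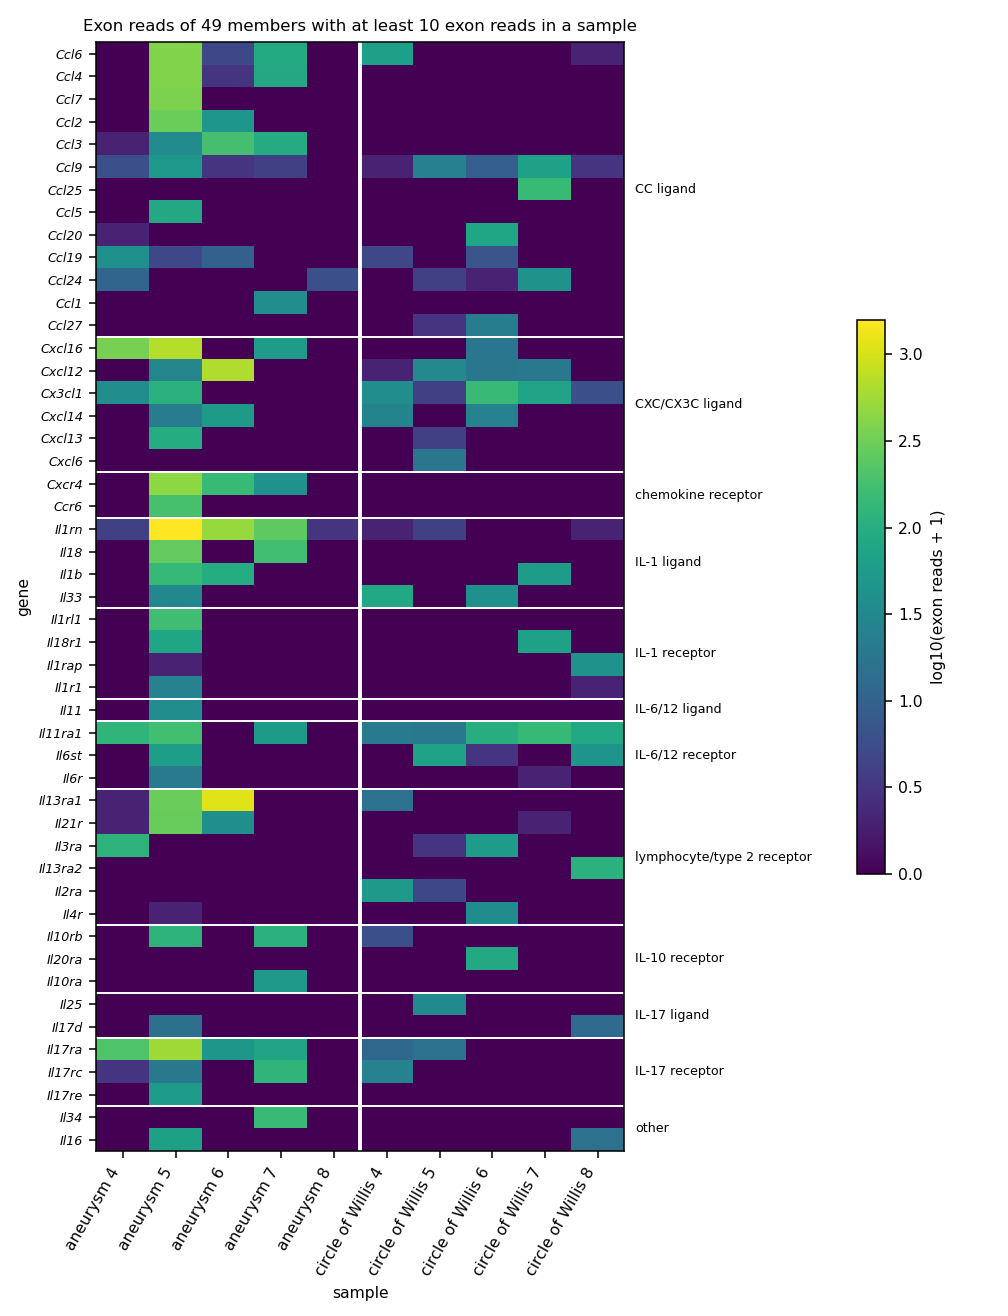
Exon reads, as log10(exon reads + 1), of 49 of the 50 genes with at least 10 exon reads in a sample (rows, grouped by role) in aneurysms 4 to 8 (left) and circle of Willis 4 to 8 (right). The aneurysm 5 column is bright for most genes, the aneurysm 8 column is dark except at a few reads of Il1rn and Ccl24, and in the circle of Willis different genes are read in different samples.

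Among the CC chemokines, 12 of 20 genes had exon reads in the aneurysms, against 7 in the circle of Willis, with 2248 and 469 exon reads in all. Without aneurysm 5 it was 9 genes and 612 exon reads in the aneurysms. Ccl2, the main monocyte attractant, had 0, 305, 47, 0 and 0 exon reads in aneurysms 4 to 8, against none in the circle of Willis. Ccl7, which also acts on Ccr2, had 0, 371, 0, 0 and 0 in the aneurysms, against none in the circle of Willis. Both were thus read in aneurysm 5, and Ccl2 in aneurysm 6 as well. Taking 3 reads as the floor for a group at 0, and dividing by each group's sum of library sizes (gene reads scaled by TMM), Ccl2 was at least 82.4-fold and Ccl7 at least 86.8-fold higher in exon reads in the aneurysms. Without aneurysm 5 the bound for Ccl2 was 16.9-fold and Ccl7 had no read. However, the difference in mean CPM, which are TMM-scaled gene reads per 1000000, gave p = 0.444 for Ccl2 and p = 1 for Ccl7 (two-sided exact permutation tests of 5 against 5 samples, smallest possible p 0.00794). Their genes lie side by side on chromosome 10 (Rnor6, 69412016 to 69413870 and 69423085 to 69424979), and Ccl11 and Ccl12, the next members of the same cluster, had no read.

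Ccl3, Ccl4, Ccl5 and Ccl6 lie further along chromosome 10. Ccl3, made by activated macrophages, had 1, 34, 179, 93 and 0 exon reads in aneurysms 4 to 8, against none in the circle of Willis. Ccl4, its close relative, had 0, 394, 2, 85 and 0 in the aneurysms, against none in the circle of Willis. Ccl3 was therefore highest in aneurysm 6 and Ccl4 in aneurysm 5. The floor gave at least 71.9-fold for Ccl3 (exact permutation p = 0.0476) and at least 113-fold for Ccl4 (exact permutation p = 0.167), or 31.2-fold for Ccl4 without aneurysm 5. With the circle of Willis at 0 throughout, each p depends only on how many aneurysms had a read. That was 4 for Ccl3 and 3 for Ccl4, so the single Ccl3 read of aneurysm 4 makes the difference. Ccl5, which attracts T cells, had 84 exon reads, all in aneurysm 5. Ccl6, a rodent chemokine of myeloid cells, had 0, 393, 4, 89 and 0 exon reads in the aneurysms, against 64, 0, 0, 0 and 1 in the circle of Willis, so that the groups overlapped (ratio of exon reads 5.25, and 1.54 without aneurysm 5).

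Of the remaining CC chemokines with at least 10 exon reads in a sample, none exceeded 162 exon reads in all. Ccl9 had 60 exon reads in the aneurysms, against 102 in the circle of Willis, spread over 4 and 5 samples. Ccl25, the ligand of Ccr9, had 147 exon reads, all in circle of Willis 7, and Ccl20, the ligand of Ccr6, had 1 in aneurysm 4 and 75 in circle of Willis 6. Ccl19, a ligand of Ccr7, had 53 exon reads in the aneurysms, against 10 in the circle of Willis. Ccl24 had 15 and 46, Ccl1 had 37 and 0, and Ccl27 had 0 and 24.

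CXC and CX3C chemokines had 2122 exon reads in the aneurysms, against 420 in the circle of Willis, with 6 of 13 genes read in exons in each tissue, and 1163 exon reads in the aneurysms without aneurysm 5. Cxcl16, a membrane-bound chemokine that also takes up oxidized lipoprotein, had 352, 703, 0, 56 and 0 exon reads in aneurysms 4 to 8, against 0, 0, 17, 0 and 0 in the circle of Willis. Scaled by the same library sizes, as all ratios of exon reads here, this is a ratio of 45.9 (95% counting interval 28.5 to 79.1), or 25.9 without aneurysm 5. Aneurysms 4 and 5 lay far above every circle of Willis sample, while aneurysms 6 and 8 had none (exact permutation p = 0.119). Part of Cxcl16 overlaps Zmynd15 on chromosome 10, whose reads were few (154 gene reads against 1164). Cxcl12, the ligand of Cxcr4, had 0, 28, 660, 0 and 0 exon reads in the aneurysms, against 1, 32, 17, 18 and 0 in the circle of Willis, so that 1 aneurysm stood above the rest (p = 0.310, exact permutation test).

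Cx3cl1, or fractalkine, had more reads in the circle of Willis. Its exon reads were 37, 111, 0, 0 and 0 in aneurysms 4 to 8, against 36, 3, 147, 72 and 5 in circle of Willis 4 to 8. It was read in 2 of 5 aneurysms and in all 5 circle of Willis samples, and the ratio of aneurysm to circle of Willis was 0.395 (95% counting interval 0.321 to 0.485), and 0.152 without aneurysm 5. The difference in CPM was within the spread of the samples (exact permutation p = 0.222). Its receptor Cx3cr1, a marker of microglia and patrolling monocytes, had 3 intron reads in the aneurysms, against 1 in the circle of Willis. Cxcl14 had 76 exon reads in the aneurysms, against 52 in the circle of Willis, the B cell attractant Cxcl13 had 94 and 3, and Cxcl6 had 0 and 17.

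Of the 18 chemokine receptors, 15 had fewer than 5 gene reads over all 10 samples. Cxcr4, which retains leukocytes and progenitor cells at sites of Cxcl12, had 0, 454, 142, 41 and 0 exon reads in aneurysms 4 to 8, against none in the circle of Willis, at least 149-fold against the floor, or 65.7-fold without aneurysm 5 (exact permutation p = 0.167). Aneurysms 4 and 8 were at 0 like the circle of Willis, and the other 3 aneurysms were above it. Ccr6 had 183 exon reads in aneurysm 5 and none in any other sample.

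Setting ligands beside receptors, Ccl2 and Ccl7 were read in aneurysm 5 while Ccr2 had no read, and Cxcl16 was read in 3 aneurysms while Cxcr6 had none. Cxcr1 had no read in any sample and Cxcr2 had 2 intron reads, both in aneurysm 6. The ligands of these neutrophil receptors, Cxcl1, Cxcl2 and Cxcl3, had no read, and Cxcl6 was read in circle of Willis 5 only. Of 9 atypical and other chemokine genes outside the naming rule, 4 (Ackr2, Xcl1, Xcr1 and Ppbp) had no read and none had enough reads for the test below, while Pf4 and Cklf had 256 and 249 exon reads in aneurysm 5.

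**Figure D4:**
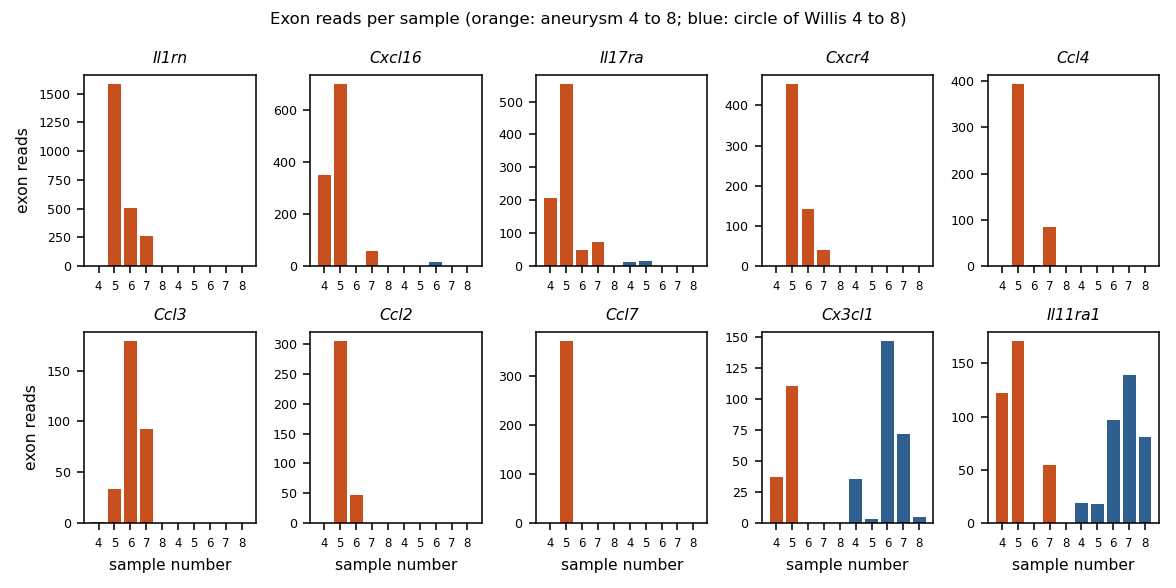
Exon reads (vertical axes, linear and different for each gene) of 10 genes in aneurysms 4 to 8 (orange, left) and circle of Willis 4 to 8 (blue, right). Il1rn reached 1587 reads in aneurysm 5 and at most 3 in the circle of Willis, whereas Cx3cl1 and Il11ra1 had reads in all 5 circle of Willis samples.

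The interleukin 1 family held the gene with the most exon reads. Il1rn, the interleukin 1 receptor antagonist, which occupies the receptor without signalling, had 3, 1587, 505, 257 and 2 exon reads in aneurysms 4 to 8, against 1, 3, 0, 0 and 1 in circle of Willis 4 to 8. Aneurysms 5, 6 and 7 lay far above the circle of Willis, and aneurysms 4 and 8, with 3 and 2 exon reads, did not exceed its highest sample. The ratio of exon reads was 331 (95% counting interval 141 to 1019), and 165 without aneurysm 5. In CPM the mean was 58.4 ± 62.0 in the aneurysms, against 0.251 ± 0.281 in the circle of Willis (SD, n = 5 each). The exact permutation p of the CPM was 0.0159. Unlike in exon reads, aneurysm 8 exceeded the highest circle of Willis sample in CPM, with 2.37 against 0.635. Its value rests on 3 gene reads and its low scaling factor of 0.282. For exon reads scaled to all exon reads of the sample, the exact permutation p was 0.0317. Only 3 samples had 10 reads or more, so that Il1rn was left out of the test across all genes by its filter on low counts. Without that filter, edgeR's quasi-likelihood test called Il1rn and Il13ra1 among 97 genes of the group, where 0.778% of all 16700 genes were called. The log2 difference of Il1rn was then 7.88 (standard error 1.78, adjusted p = 0.00309).

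Il1b, the agonist of the same receptor, had 0, 138, 96, 0 and 0 exon reads in the aneurysms, against 0, 0, 0, 57 and 0 in the circle of Willis (exact permutation p = 0.444). Aneurysms 5 and 6 were the highest, but circle of Willis 7 was above the other 3 aneurysms. Il18, processed by the same inflammasome, had 0, 273, 0, 170 and 0 exon reads in the aneurysms, against none in the circle of Willis, where it had 205 intron reads. With introns counted, its CPM averaged 16.1 ± 21.2 in the aneurysms, against 8.35 ± 6.73 in the circle of Willis (SD, n = 5 each; exact permutation p = 0.468). Il18 overlaps Tex12_1, a gene with more reads than Il18 itself, and the strand used in counting is not given. Il33, an alarmin of stromal and glial cells, had 30 exon reads in the aneurysms, against 120 in the circle of Willis. Il1a had 1 exon read in each tissue.

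The receptors of this family were read mainly in introns. Il1r1, the signalling receptor for Il1b, had 296, 27, 483, 69 and 0 gene reads in aneurysms 4 to 8, against 371, 950, 183, 762 and 176 in circle of Willis 4 to 8, of which introns took 99.2%. In CPM the means were 27.6 ± 35.9 in the aneurysms, against 106 ± 61.5 in the circle of Willis (SD, n = 5 each). The groups overlapped through aneurysm 6, and the exact permutation p was 0.0397. In exon reads alone Il1r1 was not lower, with 25 in the aneurysms, all in aneurysm 5, against 1 in the circle of Willis. Its accessory chain Il1rap was also read in introns for 93.1%. The interleukin 33 receptor Il1rl1 had 167 exon reads, all in aneurysm 5, and Il18r1 had 78 in aneurysm 5 and 66 in circle of Willis 7.

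Promoters are shown for Il1rn, which carried the most exon reads, and for Cxcl2 and Il6, which had 0 and 1 exon read in all samples, because the same motif occurs in all 3. The sequences are the 250 bases before the transcription start, from RefSeq on the build GRCr8, with matches on either strand to GGG, any 2 bases and TTTCC, a form of the NF-kappaB consensus, in capitals.
Il1rn, chr3:27520072-27520321, plus strand: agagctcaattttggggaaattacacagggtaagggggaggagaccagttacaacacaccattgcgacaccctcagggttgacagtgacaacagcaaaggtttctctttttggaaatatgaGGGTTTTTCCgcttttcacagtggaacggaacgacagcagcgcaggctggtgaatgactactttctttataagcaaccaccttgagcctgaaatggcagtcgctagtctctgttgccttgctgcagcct
Cxcl2, chr14:17467256-17467505, minus strand: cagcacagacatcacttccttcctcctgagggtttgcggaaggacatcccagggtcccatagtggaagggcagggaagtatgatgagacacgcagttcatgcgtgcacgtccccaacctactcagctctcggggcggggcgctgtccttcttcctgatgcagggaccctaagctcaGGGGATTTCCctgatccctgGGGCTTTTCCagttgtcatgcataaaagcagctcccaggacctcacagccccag
Il6, chr4:5894576-5894825, minus strand: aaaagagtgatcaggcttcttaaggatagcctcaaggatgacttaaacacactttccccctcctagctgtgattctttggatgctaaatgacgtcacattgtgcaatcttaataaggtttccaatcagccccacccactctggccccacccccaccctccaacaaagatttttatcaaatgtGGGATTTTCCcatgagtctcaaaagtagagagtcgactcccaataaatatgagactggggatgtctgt
The motif begins 129 bases before the start in Il1rn and 68 bases before it in Il6, and Cxcl2 holds 2 matches, 74 and 54 bases before the start. A promoter was found for 99 of the 129 genes, and 10 of their 106 promoters (9.43%) held the motif, against 1.30% of all 33469 promoters. The 10 genes were Ccl20, Ccl9, Ccr3, Cxcl1, Cxcl2, Cxcl6, Il1rn, Il23r, Il6 and Il9. Of these, Ccr3, Cxcl1, Cxcl2 and Il9 had no read in any sample, Ccl20, Ccl9 and Cxcl6 had more exon reads in the circle of Willis, and Il1rn, Il23r and Il6 had more in the aneurysms.

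In the interleukin 6 and 12 family the ligands were close to unread. Il6 had 1 exon read, in aneurysm 5, and Il12a, Il12b and Il23a had 1 read each. Il11, a relative of Il6, had 36 exon reads, all in aneurysm 5. The receptors had more reads: Il11ra1, the interleukin 11 receptor, had 122, 171, 0, 55 and 0 exon reads in aneurysms 4 to 8, against 19, 18, 97, 139 and 81 in circle of Willis 4 to 8. It was read in 3 of 5 aneurysms and in all 5 circle of Willis samples, with a ratio of 0.690 (95% counting interval 0.594 to 0.803) and an exact permutation p of 0.159. The last bases of Il11ra1 overlap Ccl27. Il6st, the gp130 chain shared by the family, had 0, 60, 0, 0 and 0 exon reads in the aneurysms, against 0, 69, 2, 0 and 45 in the circle of Willis (exact permutation p of the CPM 0.929). Il6r, the interleukin 6 receptor, had 2816 gene reads in the aneurysms, against 1502 in the circle of Willis, of which introns took 99.5% over both, and 21 exon reads in all.

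Receptors of the interleukin 17 family had 1085 exon reads in the aneurysms (455 without aneurysm 5), against 51 in the circle of Willis. Il17ra, the chain shared by the receptors of this family, had 208, 554, 49, 73 and 0 exon reads in aneurysms 4 to 8, against 11, 15, 0, 0 and 0 in circle of Willis 4 to 8. Aneurysms 4 to 7 all exceeded the circle of Willis, and aneurysm 8 had no exon read but 277 intron reads. The ratio of exon reads was 23.9 (95% counting interval 16.2 to 36.8), and 13.7 without aneurysm 5. In CPM of gene reads the means were 69.8 ± 88.3 in the aneurysms, against 5.50 ± 7.15 in the circle of Willis (SD, n = 5 each; exact permutation p = 0.0238). Aneurysm 8 had the highest CPM, 219, from intron reads alone and with its low scaling factor. Without it the aneurysms averaged 32.5 ± 33.3 CPM (SD, n = 4), and the log2 fold change of edgeR was 2.57 in place of 3.66. The groups overlapped: aneurysms 6 and 7 had 8.84 and 14.9 CPM, against 17.9 CPM in circle of Willis 6. Il17rc, its partner, had 143 and 25 exon reads, and Il17re had 58, all in aneurysm 5. Among the ligands, Il17a had no read, Il25 had 32 exon reads in circle of Willis 5, and Il17d had 14 exon reads in the aneurysms, against 12 in the circle of Willis.

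Of the cytokines for lymphocyte growth and type 2 responses, no ligand had an exon read in either tissue. The row named Il13ra1 had 1, 290, 1109, 0 and 0 exon reads in aneurysms 4 to 8, against 15, 0, 0, 0 and 0 in circle of Willis 4 to 8 (exact permutation p = 0.286). This row is a single exon on chromosome 11 (Rnor6, 74862803 to 74866451) inside Atp13a4, while RefSeq on GRCr8 places Il13ra1 on chromosome X and a pseudogene, Il13ra1-ps1, on chromosome 11. Its reads are therefore uncertain as a measure of the interleukin 13 receptor. Il21r, the interleukin 21 receptor of lymphocytes, had 1, 284, 38, 0 and 0 exon reads in the aneurysms, against 0, 0, 0, 1 and 0 in the circle of Willis, where introns added 50 reads (exact permutation p of the CPM 0.627). Il3ra had 118 and 58 exon reads, Il13ra2 had 0 and 109, Il2ra had 0 and 57, and Il4r had 1 and 35. The common gamma chain Il2rg had 9, all in aneurysm 5.

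In the interleukin 10 family no ligand had an exon read. Il10rb, the chain shared by its receptors, had 0, 118, 0, 110 and 0 exon reads in the aneurysms, against 5, 0, 0, 0 and 0 in the circle of Willis. Aneurysms 5 and 7 were thus far above the others (ratio 32.0, 95% counting interval 13.5 to 99.6, and 23.7 without aneurysm 5), with an exact permutation p of 0.460 for the CPM of gene reads. Il10ra had 51 exon reads, all in aneurysm 7, and Il20ra 85, all in circle of Willis 6. Il34, a second ligand of the macrophage receptor Csf1r, had 144 exon reads, all in aneurysm 7, and 93.9% of its reads in introns. Il16 had 65 exon reads in aneurysm 5 and 15 in circle of Willis 8.

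Introns carried more reads of these genes than exons did, 17344 against 15224, and the intron reads were spread more evenly, with 9122 in the aneurysms, against 8222 in the circle of Willis. Of 7 genes with at least 100 gene reads and no exon read, 6 are described. Il15ra had 206 intron reads in the aneurysms, against 281 in the circle of Willis, over 4 and 5 samples, and Cxcl17 had 231 and 243. Il15, which sustains natural killer cells, had 1 intron read in the aneurysms, against 374 in the circle of Willis, 333 of them in circle of Willis 7. Il17rb had 256 of its 257 reads in aneurysm 4, Il7 had 161 of 167 in aneurysm 5, and Il12rb2 had 108 in the aneurysms, against 96 in the circle of Willis. The seventh gene was Il4i1.

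The exon reads were also bunched within samples. Of the 50 genes with at least 10 exon reads in a sample, 44% had over 90% of their exon reads in 1 sample, against 25.4% of the 10988 genes of the table with at least 10 exon reads in all. Reads across exon junctions were found in 7 of the 109 gene and sample pairs with at least 10 exon reads (6.42%), against 25.9% over all genes. Il1rn, with 2359 exon reads over 5 exons, had no junction read. Whatever the number of exon reads, the genes with any junction read were Ccl5, Cxcl12, Cxcl9, Il13ra2, Il1rl2, Il3ra and Il6st. Of these, Cxcl9 and Il1rl2 did not reach 10 exon reads in a sample.

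Per length, the order of the genes differed between the tissues. In exon reads per kilobase of exon and per 1000000 exon reads, averaged over 5 samples, Il1rn was highest in the aneurysms (61.2 ± 69.0, SD, n = 5, against 0.208 ± 0.238 in the circle of Willis), followed by Ccl4 (37.4 ± 57.8 and 0), Cxcl16 (31.7 ± 39.2 and 0.926 ± 2.07) and Ccl3 (29.0 ± 37.8 and 0). In the circle of Willis, Il11ra1 was highest (10.8 ± 10.4 in the aneurysms, against 16.4 ± 10.9 in the circle of Willis), followed by Ccl20 (0.0717 ± 0.160 and 8.85 ± 19.8) and Cx3cl1 (2.17 ± 3.32 and 6.96 ± 8.75). The standard deviations are as large as the differences between neighbours, so that the order within each tissue is not fixed by these samples.

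In the test across all genes, which used gene reads, none of the genes was called. Of the 129 genes, 17 had enough reads to be tested and 0 had an adjusted p under 0.05 in edgeR's quasi-likelihood test, against 12 of 7615 genes in the table (0.158%). Unadjusted p-values under 0.05 were found for 2 of the 17 and for 5.73% of all genes. The log2 fold change was positive for 9 and negative for 8, with a median of 0.01, against 0.13 over all genes tested. The lowest adjusted p from edgeR was that of Il17ra (0.545), with a fold change of 3.66 on the log2 scale (standard error 1.33). DESeq2 called Il17ra (4.27 on the log2 scale, adjusted p = 0.0205 from DESeq2), as it did 1.71% of all genes. No gene of the 17 was called by limma-voom (0.171% of all genes) or with the sample number as a block (0.223%). On exon reads, 0 of 4 genes were called with the filter (0.539% of all genes) and 0 of 63 without it (0.236%). With a filter of 10 reads in 3 samples, 1 of 36 was called, Il1rn (0.267% of all genes). Il1rn passed this filter only through aneurysms 5, 6 and 7, where it was high, so the call is not independent of its selection. At the other end Il17d had -3.68 on the log2 scale (standard error 1.78, edgeR adjusted p = 0.869). In 10 of the 17 genes more than 50% of the reads lay in introns. None of the 17 genes had groups that did not overlap in CPM, against 0.499% of all tested genes with every aneurysm higher and 1.54% with every aneurysm lower. Among all 97 genes of the group with a read it was also none, against 0.347% and 0.85% of the 16700 genes with a read.

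**Figure D5:**
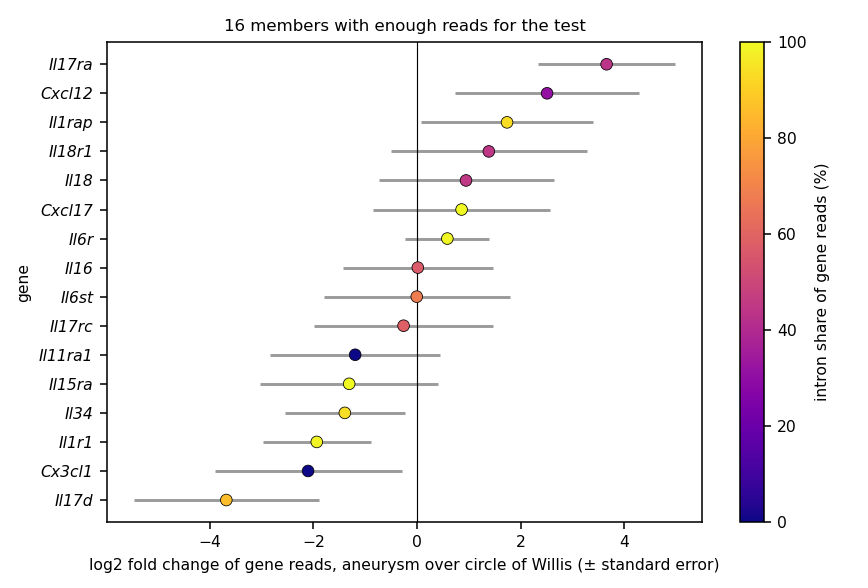
Log2 fold change of gene reads, aneurysm over circle of Willis, with its standard error (horizontal axis), for 16 of the 17 genes tested by edgeR (rows), coloured by the share of reads in introns. The values run from 3.66 for Il17ra to -3.68 for Il17d, and no adjusted p is under 0.545.

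Exact permutation tests of the CPM were run for 36 of the genes, without adjustment. The p was under 0.05 for 5 of them: Il1rn, Il17ra and Ccl3, which were higher in the aneurysms, and Il1r1 and Il17d, which were lower. The lower values of Il1r1 and Il17d are those of gene reads, of which introns took 99.2% and 85.6%. Their exon reads were not lower: Il1r1 had 25 in the aneurysms, against 1 in the circle of Willis, and Il17d had 14, against 12. On ranks the p was under 0.05 for Il1rn, Il17ra and Ccl3. For Ccl3 both p-values rest on the single read of aneurysm 4. The same test run on all genes gave an unadjusted p under 0.05 for 3 of the 17 genes with enough reads for edgeR, against 8.46% of all such genes, and for 6 of the 97 genes with a read, against 5.69% (5 and 4.51% on ranks). When 1 sample was left out at a time, p reached 0.05 or more in 26 of 50 cases: for Il1rn, Il17ra and Ccl3 without each circle of Willis sample in turn (up to 0.0635, 0.183 and 0.206), for Il1r1 in 6 of 10 cases and for Il17d in 5 (up to 0.0873 for both, exact permutation tests). Ccl3 had no read in any circle of Willis sample, and leaving out any of them gave the same 0.206. For Il1rn, Il17ra and Ccl3 the rise came whichever circle of Willis sample was left out, so it singles out none of them. Without any 1 aneurysm, their exact permutation p stayed under 0.05. For Il17d the p varied with the sample, from 0.00794 without circle of Willis 4 to 0.0873 without circle of Willis 6 (exact permutation tests). All these splits are uneven, so their p-values are not directly comparable with those of 5 against 5.

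Genes that act downstream of these receptors, and other cytokines with their receptors, did not pass the test either. None was called among 10 tested of 18 JAK, STAT and SOCS genes (median log2 fold change 0.65), 10 of 25 genes of interleukin 1 receptor signalling and NF-kappaB (0.45), 11 of 18 genes of chemokine receptor G protein signalling (0.83) and 9 of 26 other cytokines and cytokine receptors (2.65). At an unadjusted p under 0.05, edgeR found 1 gene among these lists, in G protein signalling. The other cytokines Tnf, Ifng, Csf2 and Tslp had no read in any sample. In all these lists the exon reads were highest in aneurysm 5 and lowest in aneurysm 8: the 18 JAK, STAT and SOCS genes, for example, had 376, 2245, 827, 622 and 8 exon reads in aneurysms 4 to 8, against 68 to 384 in the circle of Willis. By comparison, 1 of the 10 tested macrophage markers was called, with a median log2 fold change of 2.96, and 2 of the 6 tested fibroblast markers, with a median of 0.78.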

How the data were processed

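Poly(A)-selected RNA of 5 rupture-prone aneurysms and 5 samples of the remaining circle of Willis was sequenced by the authors (paired reads of 75 bases) and aligned in CLC genomics workbench 11 to the rat build Rnor6. The submitters' notes also name DESeq and edgeR. The libraries were made with a stranded mRNA kit according to the methods. For the strand setting used in counting, duplicate handling and annotation release, nothing is given in the sources used here. Groups and numbers were taken from the sample labels. Aneurysm and circle of Willis came from the same animal according to the methods, but no source used here says that a shared number marks the animal or that the numbers are separate animals, so a p-value reflects only how much these samples vary, which may be technical. Within a group, every pair of samples differed by more than counting noise (lowest chi-square per degree of freedom, 55.8).

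The deposited table gives raw counts: exon reads, intron reads, their sum (gene reads), unique reads and junction reads for 22081 genes. The authors' normalized values and their comparison columns (p-value, corrected p-value and fold change) were not used. Gene reads were tested in R (4.3.3) with edgeR (4.0.16): filterByExpr (count minimum 10), TMM scaling, quasi-likelihood test, Benjamini-Hochberg adjustment over all genes tested, threshold 0.05, no block. The fit recovered the changed genes in simulated counts, but these varied far less between samples than the data do. The common coefficient of variation between samples estimated here was 1.376. The simulation therefore does not show how large a change the test could find in these data. DESeq2 (1.42.0) and limma (3.58.1) were alternatives, among 21 for the test. Single genes were compared by two-sided exact permutation tests (scipy 1.17.1). Ratios of exon reads are relative to each group's sum of TMM-scaled library sizes (gene reads of the genes tested), with a floor of 3 reads over a group at 0. Intervals (95%, exact binomial) and limits cover at most counting error, since reads without molecular identifiers are not independent molecules. Depth was 3017269 to 7352626 gene reads per sample, but the spread between samples was far larger than counting noise. Promoters are from RefSeq (GRCr8), and coordinates of genes from the deposited table (Rnor6). Tables and plots were made in Python (3.11.15) with pandas (2.3.3), numpy (2.4.6) and matplotlib (3.10.9).

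Leaving out single samples in the permutation tests, and aneurysm 5 in the read classes and bounds, was added after seeing the data. The genes, the marker and pathway lists and the tests were chosen with earlier results of these data known. Genes were named by a rule: those past the threshold (0), the 50 with at least 10 exon reads in a sample (20 with the most in full, the others by range), Il1b, Il6, Cxcr1 and Cxcr2, which the study measured, up to 6 genes with at least 100 gene reads and no exon read, and genes whose groups do not overlap (0). Other genes were named, after their values were seen, as members of a read class, as partners of a named ligand or receptor, or for the seventh gene of the intron group. The values of 1 gene that the rule names are not reported here.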

Additional observations from a re-analysis of the deposited data

Results flagged for a closer look

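Of 32 groups of 5 samples in which the genes described in full had exon reads, 14 had 1 sample far from the other 4 in exon reads per 1000000 exon reads of the sample (the gap to the nearest sample was more than 0.71 of the range), where chance would flag about 1 group in 20. Groups with several samples at 0 meet this rule easily, and 2 of the 14 rest on a single read. The flagged aneurysm samples were 5 and 6. In aneurysm 5 the unscaled exon reads were 371 for Ccl7, 305 for Ccl2, 284 for Il21r, 183 for Ccr6, 60 for Il6st and 1 for Il6. In aneurysm 6 they were 1109 for Il13ra1 and 660 for Cxcl12. In the circle of Willis, sample 4 had 15 exon reads of Il13ra1, 64 of Ccl6 and 5 of Il10rb. Circle of Willis 6 had 17 of Cxcl16, and circle of Willis 7 had 57 of Il1b and 1 of Il21r.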

How the results depend on the processing

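Calls moved with the filter and the tool: 0 genes of the group were called in the chosen test, 1 by DESeq2 (Il17ra, log2 fold change 4.27), 2 without a filter on low counts (Il13ra1 and Il1rn, of 97 tested) and 1 with at least 10 reads in 3 samples (Il1rn). The last 2 settings admit genes that the main filter left out, and Il1rn passed the filter of 10 reads in 3 samples through aneurysms alone. With at least 10 reads over the group in place of 1, intron reads only were found for 16 genes in the aneurysms, against 23 in the circle of Willis, and no read for 73 in the aneurysms. Leaving out 1 aneurysm at a time, the number with exon reads in the aneurysms ranged from 32 (without aneurysm 5) to 52 (without aneurysm 6), against 53 with all of them. The sign of small log2 fold changes was not stable: Il18 (0.94) had -0.57 with limma-voom and -1.004 with the replicate block. Il6st (-0.01) had 0.23 with limma-voom, 0.30 by library size only, 0.13 without a filter, 0.056 with 10 reads in 3 samples and 0.70 without both samples numbered 8, and -0.75 to 0.60 leaving out 1 sample. Cxcl17 (0.86) had -1.32 with limma-voom, -0.42 by library size only, -1.09 with the replicate block and -1.23 without both samples numbered 8, and -0.92 (without aneurysm 8) to 1.48 leaving out 1 sample. The cause of these changes of sign was not tested. Ranks gave exact permutation p = 1 for Il18 and p = 0.524 for Ccr6, with the opposite direction. The replicate block called 0 genes of the group, like the fit without it. Deviations of same-numbered samples correlated at 0.02, -0.02, 0.05, 7.89e-05 and 0.14, and only samples 6 and 8 correlated best with their own number, so that the numbers were not taken as pairs. Depth limits genes near 0 reads: 1 read decides the class of several.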
